A study of Mus musculus with 3 samples.

Results

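*Nnt* was followed through single-nucleus RNA libraries of mouse prefrontal cortex, because the state of this gene is a common mark of the C57BL/6J strain. The member was taken by its symbol, and 2 of the 32285 gene rows of the matrices carry that symbol. Only the first row, ENSMUSG00000025453, held counts. The second, ENSMUSG00000116207, had 0 counts in all 3 libraries. Levels were taken over the kept nuclei, those that had 200 or more genes and less than 10% of their counts from mitochondrial genes, and then within cell classes set by marker genes.

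There was 1 library for each of 3 groups of male mice aged 6 to 8 weeks. The C57BL/6J library came from the pooled tissue of 5 wild-type mice. The *Nav1* KO library came from 4 pooled mice that carried a Cas9-made deletion in exon 1 of *Nav1*. This gene encodes a microtubule-associated protein of growing neurites. Per the study's methods, the deletion was made in embryos of C57BL/6J parents. A carrier was backcrossed to C57BL/6J before intercrossing to homozygous mice, and the line was kept on C57BL/6J. The BTBR library came from the unrelated inbred strain BTBR T<+> Itpr3<tf>/J, and the sources used here do not give its number of mice. The mice of the study came from Jackson Laboratories. The sample labels write the strain of both the wild-type and the *Nav1* KO library as C57BL/6, with no substrain. They name the sorted cells neurons, but glial and vascular clusters were present as well. Per the study's methods for C57BL/6J and *Nav1* KO, nuclei with and without the neuronal marker NeuN were both collected, to cover several cell types.

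*Nnt* encodes nicotinamide nucleotide transhydrogenase, an enzyme of the inner mitochondrial membrane. It uses the proton gradient to pass hydride from NADH to NADP+, and the NADPH it makes feeds the glutathione and thioredoxin systems that remove peroxides. C57BL/6J mice carry a spontaneous in-frame deletion of several *Nnt* exons and lack the working enzyme, whereas C57BL/6N and most other inbred strains are known to keep the full gene. The deletion is therefore used in genotyping to tell C57BL/6J from related strains.

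In mm10 (GRCm38) *Nnt* lies on the minus strand at chr13:119335448-119408997. The mouse reference genome is that of C57BL/6J, so it lacks the deleted exons. Its longest coding transcripts, Nnt-202 of the first row and Nnt-206 of the second, have 17 exons and 835 codons each. From knowledge of the full-length protein and not from these files, the deletion lies between exons 7 and 8 of this transcript, which are 6901 bases apart in the reference. The 80 transcript bases around that junction are shown because they are what a C57BL/6J transcript has where a full-length one has further exons. Lower case marks exon 7, at chr13:119381676-119381715, and capitals mark exon 8, at chr13:119374735-119374774, both read 5′ to 3′ on the minus strand from the GENCODE M21 transcript.
Nnt-202 exon 7 and exon 8: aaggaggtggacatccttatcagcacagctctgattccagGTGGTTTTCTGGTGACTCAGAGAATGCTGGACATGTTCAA

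The deposited tables give counts per gene and not per exon. They do not say how many *Nnt* reads crossed this junction in any library, so the deletion itself could not be read from them.

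The pair of rows named *Nnt* may also limit what was counted. The release of the gene models used for counting is not given in the sources used here. GENCODE M21, used below, holds 99.6% of the feature identifiers, so it is not the same set. In M21 all 3339 exonic bases of the second gene lie within the 7037 exonic bases of the first, so 47.4% of the first gene is shared. Cell Ranger counts a read only where it fits a single gene. The 3698 exonic bases that belong to the first gene alone in M21 fall in 5 stretches, and whether each was an exon in the counting was not tested. They are 45 bases at the start site, 1139 and 1506 bases in retained introns of Nnt-205 and Nnt-204, 928 bases at the end of the shorter transcript Nnt-203, and 80 bases at the 3′ end. Among protein-coding genes of the table, 28 had every exonic base shared with another gene on the same strand, and 26 of these (92.9%) had no count in any library. Of the 602 with some exonic bases shared, the case of the first *Nnt* gene, 11.3% had none. Of the 20995 with no shared base, 14.5% had none. Whether reads of introns were counted is not given in the sources used here. The *Nnt* values below therefore describe the reads that could be told apart, and their share of all *Nnt* reads was not tested.

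**Figure D1:**
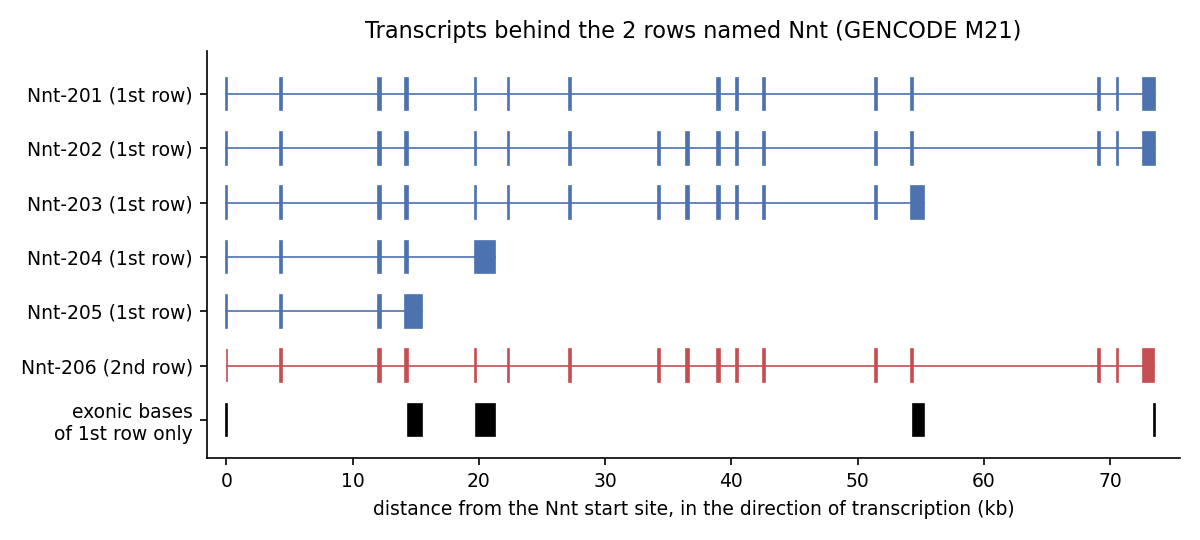
Transcripts of the 2 genes named *Nnt* in GENCODE M21, drawn to scale by distance from the start site in kb, with exons as boxes and introns as lines. The bottom line marks the 3698 exonic bases found only in the first gene, and the exons of Nnt-206 (the second row) all lie within exons of the first.

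The libraries differed in depth. C57BL/6J had 14630 kept nuclei (median 2074 UMIs), *Nav1* KO had 14056 (2754) and BTBR had 14777 (2510). Between 61 and 71 barcodes were shared by any 2 libraries. Levels are given as CPM, the counts of a gene scaled to 1000000 counts. *Nav1* itself was at 345 CPM in the C57BL/6J library, 264 CPM in the *Nav1* KO library and 146 CPM in BTBR. Its reads near the 3′ end lie outside the deleted part of exon 1, so they do not check the label. With 1 library per group no test between groups was possible. Intervals in parentheses are exact at 95% and hold the counting error alone.

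*Nnt* was a low gene in all 3 libraries. C57BL/6J held 781 counts, *Nav1* KO held 767 and BTBR held 659. Scaled to all counts, the level was 20.2 CPM in C57BL/6J (18.8 to 21.6), 15.0 CPM in *Nav1* KO (14.0 to 16.2) and 13.5 CPM in BTBR (12.5 to 14.5). C57BL/6J was thus the highest of the libraries on this scale, and the intervals of *Nav1* KO and BTBR overlapped. The *Nav1* KO level was 0.746 of that in C57BL/6J (0.674 to 0.825). The BTBR level was 0.667 of that in C57BL/6J (0.601 to 0.741), and 0.895 of that in *Nav1* KO (0.805 to 0.994). The reference lacks the exons deleted in C57BL/6J, and its effect on the *Nnt* level of BTBR was not tested.

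Per nucleus the order was different. C57BL/6J had 53.4 *Nnt* counts per 1000 nuclei (49.7 to 57.3), *Nav1* KO had 54.6 (50.8 to 58.6) and BTBR had 44.6 (41.3 to 48.1). On this scale *Nav1* KO was 1.02 times C57BL/6J (0.924 to 1.13), so the difference seen in CPM was gone, while BTBR remained lower at 0.835 (0.752 to 0.928). Mean UMIs per nucleus were 1.37 times as high in *Nav1* KO as in C57BL/6J, and 1.25 times as high in BTBR. Counts per nucleus are not scaled for this difference in depth.

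**Figure D2:**
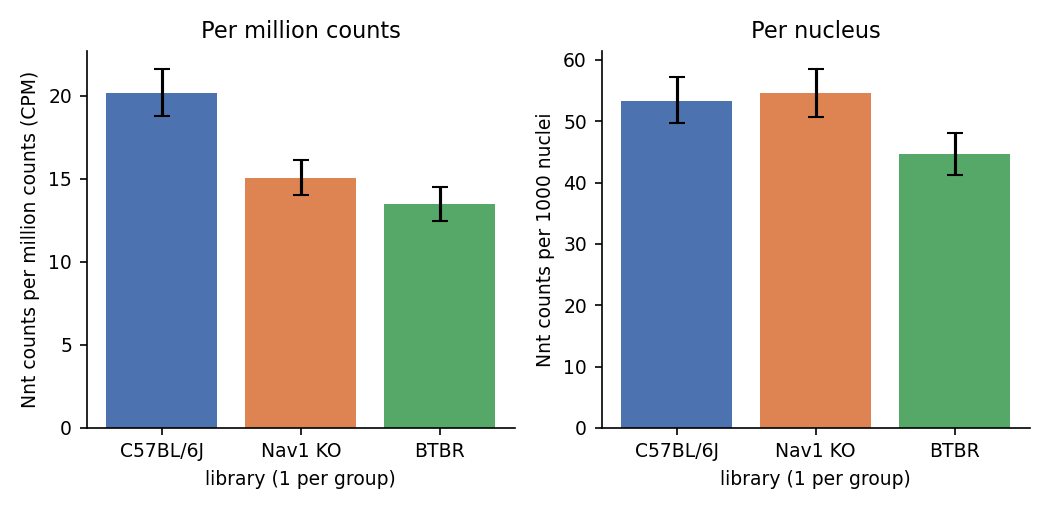
*Nnt* in each library as CPM (left) and as counts per 1000 nuclei (right), with 1 library per group and exact 95% Poisson intervals as error bars. *Nav1* KO stands beside BTBR in CPM (15.0 and 13.5) and beside C57BL/6J per nucleus (54.6 and 53.4), a scale with no correction for depth.

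Most nuclei had no *Nnt* UMI. A UMI was found in 5.00% of C57BL/6J nuclei (4.66% to 5.37%), 5.17% of *Nav1* KO nuclei (4.80% to 5.54%) and 4.12% of BTBR nuclei (3.81% to 4.45%). No nucleus had more than 4, and in C57BL/6J 687 of the 732 nuclei with *Nnt* had 1. After each nucleus was thinned to 1000 UMIs, the shares were 1.99% in C57BL/6J (1.75% to 2.25%), 1.61% in *Nav1* KO (1.40% to 1.84%) and 1.30% in BTBR (1.11% to 1.51%). The thinning left out 2394, 1249 and 2096 shallower nuclei. The thinned order was that of the CPM, though at 500 UMIs the share was 0.797% in *Nav1* KO and 0.866% in BTBR. No class of brain cell is known to lack *Nnt*, so the part of free RNA in these shares was not tested.

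The ratios of *Nnt* were set against those of genes with at least 10 CPM in 1 of the 2 libraries. For *Nav1* KO over C57BL/6J, 18.2% of these genes were at least as far from 1 as *Nnt*, in either direction. That share was 12.4% for BTBR over C57BL/6J and 50.4% for BTBR over *Nav1* KO. In *Nav1* KO against C57BL/6J, 172 of 10127 genes (1.7%) were past 2-fold in either direction. In BTBR against C57BL/6J, 352 of 10253 (3.43%) were. In BTBR against *Nav1* KO, 187 of 10187 (1.84%) were. *Nnt* was within 2-fold in each pair. The median gene ratio was 0.948 for *Nav1* KO over C57BL/6J, and 9.89% of genes had a ratio below that of *Nnt*. For BTBR over C57BL/6J the median was 1.03, and 4.79% of genes lay below *Nnt*. For BTBR over *Nav1* KO the median was 1.08, a shift of 0.11 in log2, and 11.9% lay below *Nnt*. Relative to these medians *Nnt* was at 0.786, 0.650 and 0.829.

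Cell classes were read from clusters named by marker lists. The excitatory-like class had 9443, 7238 and 7098 nuclei in C57BL/6J, *Nav1* KO and BTBR. It joins clusters 0, 1, 2 and 5, with *Slc17a7*, the vesicular glutamate transporter of cortical excitatory neurons, at 713 to 946 CPM. The excitatory list led these clusters by a small median fold, 1.18 to 1.51, and of its genes *Neurod6* in cluster 1 was the only 1 among the 10 leading genes of a cluster. *Slc17a7* alone did not set them apart from every other cluster. It was at 892 CPM in the mitral or tufted-like cluster and 459 CPM in the oligodendrocyte-like one, though at 134 CPM in the inhibitory-like one. Cluster 0 had few UMIs (median 1421). Clusters 3 and 6 mixed markers of several classes and were left unnamed.

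In excitatory-like nuclei *Nnt* had 448, 309 and 228 counts in C57BL/6J, *Nav1* KO and BTBR. The levels were 19.3 CPM (17.6 to 21.2), 11.9 CPM (10.6 to 13.3) and 11.6 CPM (10.2 to 13.2). On this scale C57BL/6J stood apart from the other libraries, whose intervals overlapped. *Nav1* KO was 0.616 of C57BL/6J (0.531 to 0.713), BTBR was 0.601 of C57BL/6J (0.510 to 0.706), and BTBR was 0.976 of *Nav1* KO (0.819 to 1.16). Per nucleus *Nav1* KO stood nearer to C57BL/6J, with 42.7 counts per 1000 nuclei against 47.4 in C57BL/6J and 32.1 in BTBR. *Nav1* KO was then 0.900 of C57BL/6J (0.776 to 1.04), and BTBR was 0.752 of *Nav1* KO (0.631 to 0.896). These values are not scaled for depth, and the class had medians of 2095, 3017 and 2500 UMIs in C57BL/6J, *Nav1* KO and BTBR. From 4000 UMIs on, the counts per 1000 nuclei were 95.9, 68.7 and 49.5 in that order, and C57BL/6J was highest in every band of depth. A *Nnt* UMI was found in 4.54% of C57BL/6J nuclei of this class (4.13% to 4.98%), 4.12% of *Nav1* KO nuclei (3.67% to 4.60%) and 3.04% of BTBR nuclei (2.66% to 3.47%). By cluster, the C57BL/6J level ran from 15.8 CPM in cluster 1 to 26.2 CPM in cluster 0, the *Nav1* KO level from 10.2 to 13.2 CPM, and the BTBR level from 9.47 to 16.3 CPM. In each of the 4 clusters C57BL/6J was the highest. Without cluster 0, *Nav1* KO was 0.686 of C57BL/6J (0.579 to 0.813). With nuclei assigned 1 by 1 from their marker UMIs, which kept 1239 *Nav1* KO and 1235 C57BL/6J nuclei, it was 0.830 (0.553 to 1.25).

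The neuron classes outside the excitatory one had fewer counts and gave no clear order. Inhibitory-like nuclei had 14.7 CPM in C57BL/6J (9.52 to 21.7), 17.6 CPM in *Nav1* KO (13.03 to 23.3) and 14.8 CPM in BTBR (11.0 to 19.4), so *Nav1* KO was nominally the highest there. Their *Nav1* KO over C57BL/6J ratio was 1.20 (0.726 to 2.02). Striatal medium spiny-like nuclei had 16.8 CPM in C57BL/6J (11.4 to 23.8), 14.8 CPM in *Nav1* KO (7.37 to 26.4) and 11.8 CPM in BTBR (6.12 to 20.7). Mitral or tufted-like nuclei, the output cells of the olfactory bulb, had 1 *Nnt* count in the 40 nuclei of C57BL/6J, 31 counts in 545 nuclei of *Nav1* KO and 14 counts in 352 nuclei of BTBR.

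Astrocyte-like nuclei had the highest *Nnt* level of the classes with over 50 counts. It was 35.2 CPM in C57BL/6J from 15 counts (19.7 to 58.1), 30.5 CPM in *Nav1* KO from 29 counts (20.4 to 43.8) and 28.5 CPM in BTBR from 20 counts (17.4 to 44.0). The level was above that of excitatory-like nuclei in each library, by 1.82 times in C57BL/6J (1.01 to 3.04), 2.56 times in *Nav1* KO (1.69 to 3.75) and 2.45 times in BTBR (1.47 to 3.88). Astrocyte-like nuclei were shallower, with medians of 1045.5, 1427.5 and 1441 UMIs in C57BL/6J, *Nav1* KO and BTBR. Excitatory-like nuclei had 2095, 3017 and 2500. In C57BL/6J, excitatory-like nuclei under 1000 UMIs were at 40.8 CPM (29.4 to 55.1), and the part of depth in these ratios was not tested. Thinned to 1000 UMIs, *Nnt* was found in 3.12% (1.16% to 6.68%), 3.53% (2.03% to 5.67%) and 4.00% (2.08% to 6.88%) of astrocyte-like nuclei. In excitatory-like nuclei it was found in 1.86% (1.58% to 2.18%), 1.27% (1.01% to 1.56%) and 0.992% (0.758% to 1.27%). These intervals overlapped in C57BL/6J alone. *Slc17a7*, a gene of neurons, was at 132 CPM in the astrocyte-like cluster, and the part of free neuronal RNA in the *Nnt* values was not tested. With classes set for each nucleus from its marker UMIs, the astrocyte-like level was 21.9 CPM in C57BL/6J, 20.9 CPM in *Nav1* KO and 33.5 CPM in BTBR. It was then 1.43 times the excitatory-like level in C57BL/6J (0.671 to 2.78), 1.65 times in *Nav1* KO (0.933 to 2.80) and 3.003 times in BTBR (1.77 to 4.98), so the difference held beyond counting error in BTBR alone.

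Precursor cells of oligodendrocytes had a like level with few counts, at 38.8 CPM from 5 counts in C57BL/6J (12.6 to 90.4), 39.3 CPM from 10 counts in *Nav1* KO (18.8 to 72.3) and 17.1 CPM from 4 counts in BTBR (4.66 to 43.8). Mature oligodendrocyte-like nuclei had 19.8 CPM in C57BL/6J (13.3 to 28.5), 12.8 CPM in *Nav1* KO (7.72 to 20.02) and 7.84 CPM in BTBR (3.58 to 14.9). Their BTBR over C57BL/6J ratio was 0.395 (0.164 to 0.857). Vascular or meningeal-like nuclei had 18.3 CPM in C57BL/6J (10.6 to 29.3), 21.03 CPM in *Nav1* KO (16.2 to 26.9) and 14.1 CPM in BTBR (8.71 to 21.5). Ensheathing glia-like nuclei held 6 *Nnt* counts in all. In the unnamed cluster 3 the order was that of the excitatory-like class, with 23.1 CPM in C57BL/6J, 16.7 CPM in *Nav1* KO and 14.3 CPM in BTBR. In the unnamed cluster 6, which held microglial and astrocyte markers, the levels were 25.1, 22.0 and 16.8 CPM.

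As a mean of the 3 libraries with equal weight, over named classes with at least 50 nuclei in each, the order ran from oligodendrocyte precursor-like (31.7 CPM) and astrocyte-like nuclei (31.4 CPM) through vascular or meningeal-like (17.8 CPM), inhibitory-like (15.7 CPM), medium spiny-like (14.5 CPM) and excitatory-like nuclei (14.3 CPM) to oligodendrocyte-like nuclei (13.5 CPM). The first pair also had shallow nuclei, with C57BL/6J medians of 937 and 1045.5 UMIs. Below the first pair the order was not the same in each library. In C57BL/6J excitatory-like nuclei were nominally above inhibitory-like ones (19.3 against 14.7 CPM), and in *Nav1* KO they were below (11.9 against 17.6 CPM). The inhibitory-like over excitatory-like ratio was 0.760 in C57BL/6J (0.487 to 1.14), within counting error, and 1.48 in *Nav1* KO (1.07 to 2.00).

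**Figure D3:**
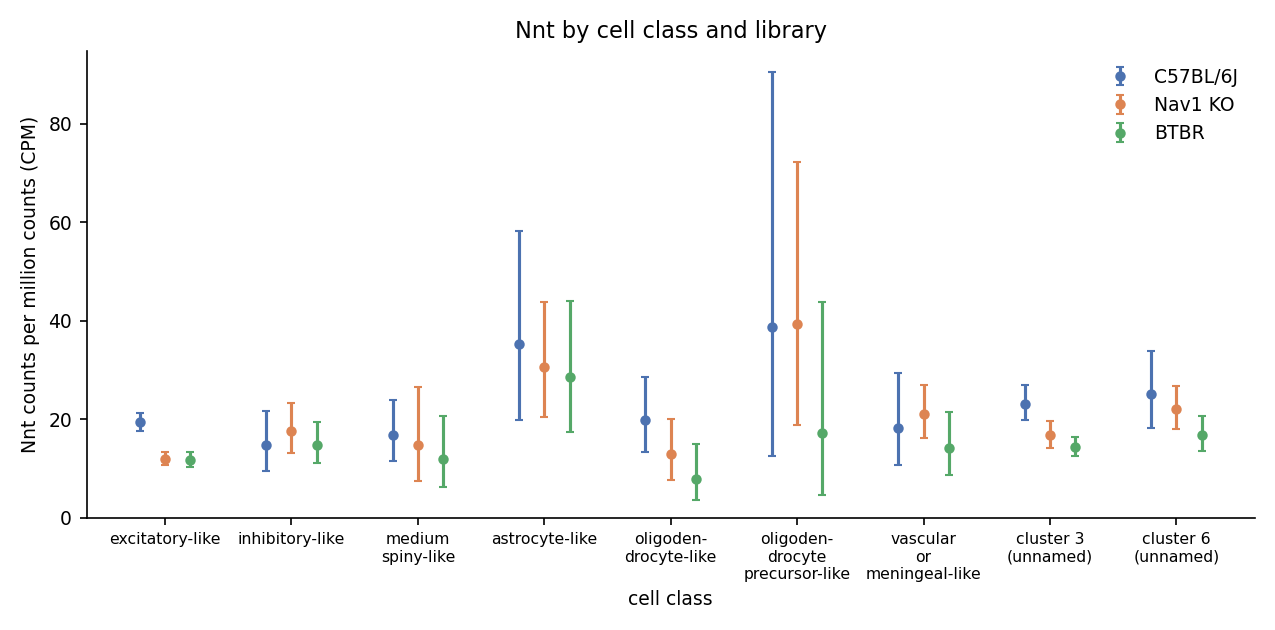
*Nnt* level in CPM by cell class for each library, with exact 95% Poisson intervals, for classes with at least 50 nuclei in every library. The excitatory-like class has the narrowest intervals and C57BL/6J above the others there (19.3 against 11.9 and 11.6 CPM), while in inhibitory-like nuclei all 3 intervals overlap.

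In C57BL/6J and BTBR, *Nnt* in CPM was also lower in deeper nuclei. In excitatory-like nuclei of C57BL/6J it was 40.8 CPM below 1000 UMIs (29.4 to 55.1), 20.4 CPM from 1000 to under 2000 UMIs (16.5 to 25.02), 18.0 CPM from 2000 to under 4000 UMIs (15.6 to 20.8) and 17.5 CPM from 4000 UMIs on (14.5 to 20.8). In BTBR it was 22.9, 14.2, 12.1 and 9.004 CPM in the same order. In *Nav1* KO it was 16.0, 11.0, 13.3 and 11.0 CPM, with 5 counts in the first band. At like depth C57BL/6J was nominally the highest in all 4 bands. Under 1000 UMIs and from 1000 to under 2000, BTBR over C57BL/6J was 0.561 (0.299 to 1.006) and 0.694 (0.441 to 1.06), within counting error. In the same bands *Nav1* KO over C57BL/6J was 0.393 (0.121 to 0.991) and 0.541 (0.323 to 0.868). The *Nav1* KO over C57BL/6J ratio was 0.738 from 2000 to under 4000 UMIs (0.584 to 0.929) and 0.630 from 4000 UMIs on (0.495 to 0.804). The BTBR over C57BL/6J ratio was 0.673 (0.530 to 0.852) and 0.516 (0.375 to 0.702) in these bands. Between nuclei under 2000 UMIs and those with 4000 or more, *Nnt* was 1.38 times as high in C57BL/6J (1.08 to 1.78) and 1.83 times in BTBR (1.23 to 2.72), where the median gene was at 1.06 and 1.23. In *Nav1* KO *Nnt* was at 1.06 (0.680 to 1.61) and the median gene at 1.14.

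**Figure D4:**
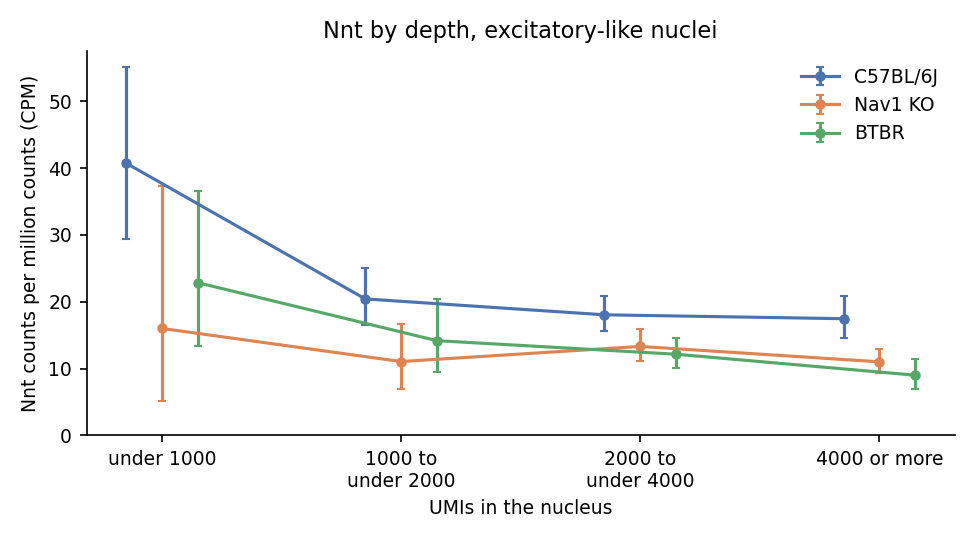
*Nnt* level in CPM of excitatory-like nuclei in 4 bands of UMIs per nucleus for each library, with exact 95% Poisson intervals. C57BL/6J lies above *Nav1* KO and BTBR in every band, and its level falls from 40.8 CPM below 1000 UMIs to 17.5 CPM at 4000 or more.

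*Nnt* works beside other enzymes that make NADPH, use it or handle reactive oxygen, and 20 of their genes were followed. None was past 2-fold in any pair of libraries, against 1.7%, 3.43% and 1.84% of genes with at least 10 CPM in 1 of the 2 libraries. The sets are unlike, since some of the 20, such as *Gsr*, were below 10 CPM in every library. A list of 20 genes is also too short to tell none from such shares. In *Nav1* KO over C57BL/6J the median ratio of the 20 was 0.936, beside 0.948 for genes at 10 CPM or more. In BTBR over C57BL/6J it was 1.06, beside 1.03. Of the other mitochondrial sources of NADPH, the isocitrate dehydrogenase gene *Idh2* had 27.3 CPM in C57BL/6J, 34.8 CPM in *Nav1* KO and 42.6 CPM in BTBR, the reverse of the order of *Nnt*. The glutamate dehydrogenase gene *Glud1* had 25.9, 30.4 and 35.9 CPM in that order. The mitochondrial malic enzyme gene *Me3* ran the same way as *Nnt*, with 168 CPM in C57BL/6J, 132 CPM in *Nav1* KO and 109 CPM in BTBR. The NAD kinase gene *Nadk2*, which supplies mitochondrial NADP+, had 10.1, 10.9 and 11.4 CPM. These levels are over all kept nuclei, whose mix of classes differed between libraries, and the part of that mix was not tested. In excitatory-like nuclei *Glud1* had 19.8, 19.9 and 24.5 CPM, and *Nadk2* had 7.69, 5.70 and 7.39 CPM. *Idh2* and *Me3* kept their order there.

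Of the genes that use NADPH or handle reactive oxygen, the glutathione reductase gene *Gsr* had 8.76, 8.01 and 7.89 CPM, and the thioredoxin reductase gene *Txnrd2* had 7.65, 6.44 and 6.31 CPM. The peroxidase genes *Prdx3* (8.14, 7.06 and 8.70 CPM) and *Gpx4* (52.9, 54.4 and 59.3 CPM) had no such order. *Sod2*, the mitochondrial superoxide dismutase, which makes peroxide from superoxide and uses no NADPH, had 117 CPM in C57BL/6J, 94.4 CPM in *Nav1* KO and 81.4 CPM in BTBR. *Gpx1*, a glutathione peroxidase, had the highest *Nav1* KO over C57BL/6J ratio of the list at 1.65 (1.39 to 1.97), from 4.88 to 8.06 CPM. Of the cytosolic NADPH makers, *Idh1* was 1.58 times as high in *Nav1* KO as in C57BL/6J (1.32 to 1.90). *G6pdx*, the first enzyme of the pentose phosphate pathway, was at 0.957 (0.812 to 1.13). These values, too, are over all kept nuclei. In excitatory-like nuclei the ratio was 1.33 for *Idh1* (0.996 to 1.78) and 1.43 for *Gpx1* (1.10 to 1.87).

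The genes next to *Nnt* on chromosome 13 were set beside it because they would be inherited with it. Among genes with at least 10 CPM, 3.43% were past 2-fold in BTBR against C57BL/6J, 1.7% in *Nav1* KO against C57BL/6J and 1.84% in BTBR against *Nav1* KO. Of the 5 nearest on each side at that level, 1 of 10 was past 2-fold in BTBR against C57BL/6J, and none otherwise. That gene was *Tmem267*, a transmembrane protein gene 79.0 kb away, with 19.0 CPM in C57BL/6J, 12.4 CPM in *Nav1* KO and 7.93 CPM in BTBR. Its ratios were 0.652 for *Nav1* KO (0.586 to 0.726) and 0.416 for BTBR over C57BL/6J (0.367 to 0.471). *Paip1*, a regulator of translation and the nearest gene at 19.6 kb, had 20.5, 19.6 and 23.6 CPM. *Hmgcs1*, an enzyme of cholesterol synthesis, had 59.4, 51.8 and 44.3 CPM, and the kinase gene *Nim1k* had 50.0, 49.1 and 32.4 CPM. On the other side, *Mrps30*, a mitochondrial ribosome gene 948 kb away, had 16.6, 15.2 and 17.1 CPM.

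Genes known to differ between C57BL/6 substrains in expression or copy number were followed as well. *Ide*, which encodes insulin-degrading enzyme, had 94.5 CPM in C57BL/6J, 99.4 CPM in *Nav1* KO and 54.7 CPM in BTBR. *Nav1* KO was at 1.05 of C57BL/6J (1.01 to 1.10) and BTBR at 0.579 (0.550 to 0.609). The GABA-A receptor gene *Gabra2* had 158, 134 and 123 CPM in C57BL/6J, *Nav1* KO and BTBR, and *Wdfy1* had 51.4, 41.6 and 40.4 CPM. *Nav1* KO over C57BL/6J was 0.850 for *Gabra2* (0.821 to 0.880) and 0.810 for *Wdfy1* (0.761 to 0.861). BTBR over C57BL/6J was 0.779 (0.752 to 0.807) and 0.785 (0.737 to 0.836) for these genes. *Entpd4* and its near-identical copy *Entpd4b* had 1 and 2 counts in C57BL/6J and 0 in the other libraries. Reads of such copies cannot be told apart, so no ratio was taken.

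The genes furthest apart between BTBR and C57BL/6J in excitatory-like nuclei were set beside *Nnt*. With 1 library per group, a difference of strain cannot be told apart from one of library. All reads were set against the C57BL/6J reference, and its effect on the BTBR values was not tested. The genes were chosen by the BTBR and C57BL/6J contrast, so their values in those libraries are a description. The *Nav1* KO values played no part in the choice. The non-coding gene *Gm12027* had 196 CPM in C57BL/6J, 130 CPM in *Nav1* KO and 0 counts in BTBR, which made C57BL/6J at least 1281-fold higher than a floor of 3 counts. *Gm17167* had 304, 302 and 1.12 CPM, and *A830036E02Rik* had 194, 177 and 2.498 CPM. *Galnt1*, which starts O-linked glycosylation, had 268, 165 and 16.6 CPM, and the autophagy gene *Gabarapl2* had 125, 92.5 and 22.0 CPM.

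In the other direction, *Lsm4*, a gene of RNA splicing and decay, had 8.07 CPM in C57BL/6J, 10.2 CPM in *Nav1* KO and 186 CPM in BTBR. *Sav1*, a scaffold of the Hippo pathway, had 21.6, 18.0 and 189 CPM. *Sbspon* had 4.62, 3.39 and 55.2 CPM, *Cep19* had 16.7, 28.8 and 99.1 CPM, and *Asna1* had 12.9, 17.0 and 76.7 CPM. These were the extremes of 3841 genes at 50 CPM or more, and the share of all genes nearer to C57BL/6J was not taken. For 10 of these 10 genes the *Nav1* KO level was nearer to C57BL/6J than to BTBR on the log scale. For *Nnt* in the same nuclei it was nearer to BTBR in CPM, at 11.9 between 11.6 and 19.3 CPM. By cluster this held in clusters 0, 2 and 5. In cluster 1, with 148 *Nav1* KO counts, *Nav1* KO was nearer to C57BL/6J. It was at 13.2 CPM there (11.1 to 15.4), with C57BL/6J at 15.8 CPM (13.3 to 18.7) and BTBR at 9.47 CPM. Per nucleus in the whole class, with no scaling for depth, the *Nav1* KO level was nearer to C57BL/6J, at 42.7 between 32.1 and 47.4 counts per 1000 nuclei. At like depth this nearness was not seen. From 2000 to under 4000 UMIs, *Nav1* KO had 38.6 counts per 1000 nuclei, between 34.3 in BTBR and 50.8 in C57BL/6J. None of the 10 lies on chromosome 13, the chromosome of *Nnt*. The *Nav1* KO over C57BL/6J ratio of the 10 genes ran from 0.615 for *Galnt1* to 1.73 for *Cep19*, and the 0.616 of *Nnt* lay at the lower end. As the 10 genes were chosen in these data, this range is a description and not a measure of how common such a ratio is. The 10 genes, chosen for it, were further from BTBR than *Nnt* was. C57BL/6J and C57BL/6N were not compared, since no C57BL/6N library was analysed here.

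**Figure D5:**
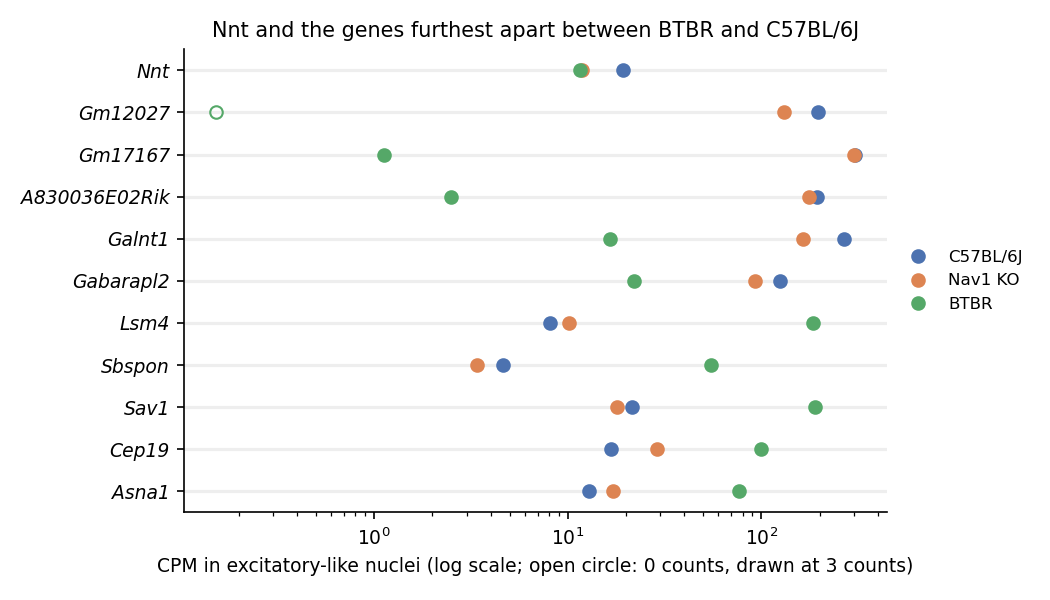
Levels of *Nnt* and of the 10 genes with the most extreme BTBR over C57BL/6J ratios in excitatory-like nuclei, in CPM on a log axis, with 1 point per library. For each of the 10 genes the *Nav1* KO point lies nearer to the C57BL/6J point than to the BTBR point, as with 302, 304 and 1.12 CPM for *Gm17167*, while the 3 points of *Nnt* lie between 11.6 and 19.3 CPM.

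The genes whose levels ran most like *Nnt* over the 31 units of library and class with at least 50 nuclei were *Caskin1* (Pearson r = 0.84), *Cspg5* (r = 0.79), *Desi2* (r = 0.78), *Mro* (r = 0.78) and *Mcur1* (r = 0.76). The correlations were taken on log2(CPM + 1) across 10369 genes, whose median r was -0.05. The units share libraries and depth, and several rest on few *Nnt* counts, so r is a description of these libraries. *Caskin1*, a synaptic scaffold gene, had 157 CPM in C57BL/6J, 128 CPM in *Nav1* KO and 73.7 CPM in BTBR, in the same order as *Nnt*. *Cspg5*, a brain proteoglycan gene, had 339, 373 and 330 CPM. By Spearman correlation 2 of these 5 genes, *Caskin1* and *Mro*, were again among the 5 highest.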

How the data were processed

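Per the labels and the study's methods, nuclei of prefrontal cortex were sorted, run on the 10x 3′ v3.1 kit and counted with Cell Ranger 6.0.0 on mm10. The authors deposited filtered matrices of counts (UMIs per gene and nucleus), 1 library per group. The C57BL/6J matrix had 15402 barcodes, the *Nav1* KO matrix 14623 and the BTBR matrix 15238, which for BTBR is the number of cells the series states. Kept nuclei hold 38704723, 50965774 and 48939692 counts, so that 3 counts are 0.078, 0.059 and 0.061 CPM. No doublet caller was used.

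The libraries were merged in Seurat 5.3.0 (R 4.3.3), scaled to 10000 counts per nucleus and clustered without integration on 2000 variable genes, *Nnt* left out, with 10 principal components at resolution 0.3. A cluster was named X-like where the median fold of its leading marker list over the other clusters, with 5 CPM added, was at least 2 and 2.5 times that of the next list. It was called excitatory-like where that list led. In both cases at least 3 markers were found and no other list had more genes among the 10 leading ones. These limits were set after the data were seen. In the alternative by nucleus, the leading list had at least 3 UMIs and 67% of the marker UMIs.

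Counts were summed per library and class and given as CPM with exact Poisson intervals. Shares have Clopper-Pearson intervals and ratios have exact intervals from the split of the summed counts (binomial) (scipy 1.17.1, Python 3.11.15). No p-value was computed. Named genes are *Nnt*, *Nav1*, the listed pathway and substrain genes, the 5 nearest genes on each side, the 5 most correlated genes, and the 5 highest and 5 lowest BTBR over C57BL/6J ratios in excitatory-like nuclei at 50 CPM or more. *Entpd4b* was added after its value was seen. The values of some listed genes are not reported here. The ratio and interval step was tested on simulated data. GENCODE M21 holds 99.6% of the feature identifiers. The gene and the lists were chosen with earlier results of these data known.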

Additional observations from a re-analysis of the deposited data

How the results depend on the processing

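*Nnt* in CPM kept its order of libraries when all barcodes, nuclei under 5% mitochondrial counts, counts without mitochondrial genes, another scaling by the median gene ratio, the class mix of C57BL/6J, or nuclei without the 10% of most UMIs were used. Thinned to 1000 UMIs, the *Nav1* KO level was 16.2 CPM. The *Nav1* KO over C57BL/6J ratio ran from 0.714 to 0.804 over these settings, and BTBR over C57BL/6J from 0.634 to 0.669. Alternatives chosen after seeing the data moved more. Counts per nucleus, which are not scaled for depth, turned the direction of *Nav1* KO over C57BL/6J to 1.02 and gave 0.835 for BTBR over C57BL/6J. In excitatory-like nuclei they gave 0.900 for *Nav1* KO over C57BL/6J and 0.752 for BTBR over *Nav1* KO. By depth in excitatory-like nuclei *Nav1* KO over C57BL/6J was 0.393 under 1000 UMIs, 0.541 from 1000 to under 2000 and 0.630 from 4000 on. BTBR over C57BL/6J was 0.561 under 1000 and 0.516 from 4000 UMIs on. BTBR over *Nav1* KO was 1.43 under 1000 UMIs (0.506 to 4.95), where *Nav1* KO had 5 counts, and 1.28 from 1000 to under 2000 (0.712 to 2.34). Both intervals hold 0.976, the ratio of all excitatory-like nuclei, so no turn beyond counting error was seen. The cause of the other shifts was not tested.

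The excitatory-like level of C57BL/6J moved from 19.3 CPM to 16.6 with 20 principal components, 17.4 with each library clustered alone and 15.3 with classes set by nucleus. Inhibitory- and astrocyte-like levels stayed within their wide counting intervals in all alternatives run, but with classes set by nucleus the astrocyte-like level went from 35.2 to 21.9 CPM in C57BL/6J and from 30.5 to 20.9 CPM in *Nav1* KO, beside 19.95 and 19.6 CPM in inhibitory-like nuclei. No astrocyte-like cluster was named in C57BL/6J, nor an inhibitory-like one in *Nav1* KO, when each library was clustered alone. Shares of nuclei with a UMI, in the order C57BL/6J, *Nav1* KO and BTBR, were 1.05%, 0.797% and 0.866% thinned to 500 UMIs. Not thinned they were 5.00%, 5.17% and 4.12%. *Nav1* KO and BTBR, and then C57BL/6J and *Nav1* KO, thus nominally changed places. The unthinned intervals of C57BL/6J (4.66% to 5.37%) and *Nav1* KO (4.80% to 5.54%) overlapped, and no interval was taken at 500 UMIs. At 1.5-fold, 842 of 10127 genes were called in *Nav1* KO against C57BL/6J. BTBR against C57BL/6J had 1266 of 10253, and BTBR against *Nav1* KO had 617 of 10187. At 50 CPM or more, 20, 84 and 49 genes in the same order were past 2-fold. Among excitatory-like nuclei *Nav1* KO against C57BL/6J had 53. There 2 genes next to *Nnt* were past 2-fold in BTBR against C57BL/6J. The numbers of genes at 50 CPM or in excitatory-like nuclei are not given here, so those counts have no share beside them. In each named class outside the excitatory-like one, a library had at most 63 *Nnt* counts, which limits the ratios there. No paired analysis was possible because each group had 1 library.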
